A study of Monodelphis domestica and Mus musculus with 2 samples.

Results

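Pvalb interneurons are the parvalbumin (PV) class of inhibitory neurons of the cortex, and here they are described in the primary visual cortex (V1) of the mouse. The cells were taken by their labels. A segmented cell counted as a Pvalb cell where it passed the study's quality filter and lay in a V1 region, and where its subclass label was Pvalb and its class label GABAergic. This gave 150 cells. They were 1.64% of the 9127 V1 cells that passed the filter and 30.2% of the 497 GABAergic cells. The mouse section held 120239 segmented cells and both sections of the series 200608, the other being an opossum section of 80369 cells that is not analysed here. Of 174 V1 cells with a Pvalb subclass label, 21 carried a glutamatergic and 3 a non-neuronal class label, and these 24 were left out. For comparison there were 144 Sst cells of GABAergic class, which are the somatostatin interneurons, and 6245 cells of glutamatergic class.

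The measurements came from Stereo-seq, in which tissue lies on an array of spots with position barcodes, and polyadenylated RNA is captured where it lies. The section was 10 µm thick and came from the cortex of 1 male wild-type C57BL/6J mouse of about postnatal day 40, untreated and without any transgene. The section passed through several coronal slices embedded in 1 block, and 4 hand-drawn regions of V1, each spanning layers 2/3 to 6, lay on more than 1 of these slices. With 1 animal there is no biological replicate, so no difference below was tested, and the SD over regions describes the spread within and between slices of 1 animal. Labels had been transferred from a single-nucleus RNA atlas by nearest neighbours in expression space, so gene levels describe what the labels picked out and are no independent support for them. Position was not used for the labels.

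Pvalb interneurons release GABA onto the soma and proximal dendrites of pyramidal neurons and fire fast, brief action potentials. Fast firing is known to rest on Kv3 potassium channels, which repolarise the membrane quickly, on a fast release apparatus that includes synaptotagmin 2, and on a high capacity for mitochondrial respiration. Parvalbumin itself is a calcium buffer. In the visual cortex many of these cells are wrapped in perineuronal nets, a lattice of proteoglycans and link proteins that is associated with the close of the critical period. Pvalb and Sst interneurons both arise from the medial ganglionic eminence (MGE), an embryonic source of cortical interneurons.

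The section held 147861707 unique molecular identifiers (UMIs), each a captured RNA molecule, of which 12522687 fell in V1. The Pvalb cells held 237220 UMIs, with a median of 1523 per cell (range 189 to 3571) and a median of 944.5 genes. Median UMIs were 1472.5 in Sst cells, 1325 in glutamatergic cells and 1245 in non-neuronal cells. A level below is the number of UMIs of a gene per 10000 UMIs summed over the cells of a group, with an exact Poisson 95% interval. Ratios of levels carry exact conditional binomial 95% intervals, and shares carry exact Clopper-Pearson 95% intervals. All of these cover counting error only.

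The share of Pvalb cells among GABAergic cells was 30.2% (95% interval 26.2 to 34.4). It was 37.3% in region 1 (75 of 201 cells), 25.6% in region 2 (20 of 78), 23.8% in region 3 (25 of 105) and 26.5% in region 4 (30 of 113), or 28.3% ± 6.10 (SD, n = 4 regions). Region 1 was the highest and held 75 of the 150 cells, while the other regions lay close together. The share of Sst cells was 29.0% (25.02 to 33.2) over all regions and 27.4% in region 1. Pvalb cells outnumbered Sst cells in region 1 (1.36 Pvalb cells for each Sst cell), were equal in number to them in region 4, and were fewer in regions 2 and 3 (0.741 and 0.781). The study did not use Stereo-seq for cell densities because transcripts drop out, and these shares are subject to the same limit.

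Pvalb cells were spread over layers 2/3 to 6, and their share of cells was highest below the median depth of L4. This is a share of labelled cells and not a density. The study's PV staining, a protein measure per area, put the highest PV cell density in layers 4 and 5. Their median depth below the top of layer 2/3 was 425 µm, with quartiles at 302 and 584 µm. The medians in regions 1 to 4 were 398, 455, 453 and 441 µm, or 437 ± 26.4 µm (SD, n = 4 regions). For orientation, the median L2/3 cell lay at 135 µm and the median L4 cell at 261 µm, while L5PT (pyramidal tract) cells lay at 423 µm and L6CT (corticothalamic) cells at 655 µm. The median Pvalb cell thus lay at the depth of the L5PT cells. The L5PT quartiles, however, spanned 62.5 µm, while the Pvalb quartiles spanned 282 µm.

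**Figure D1:**
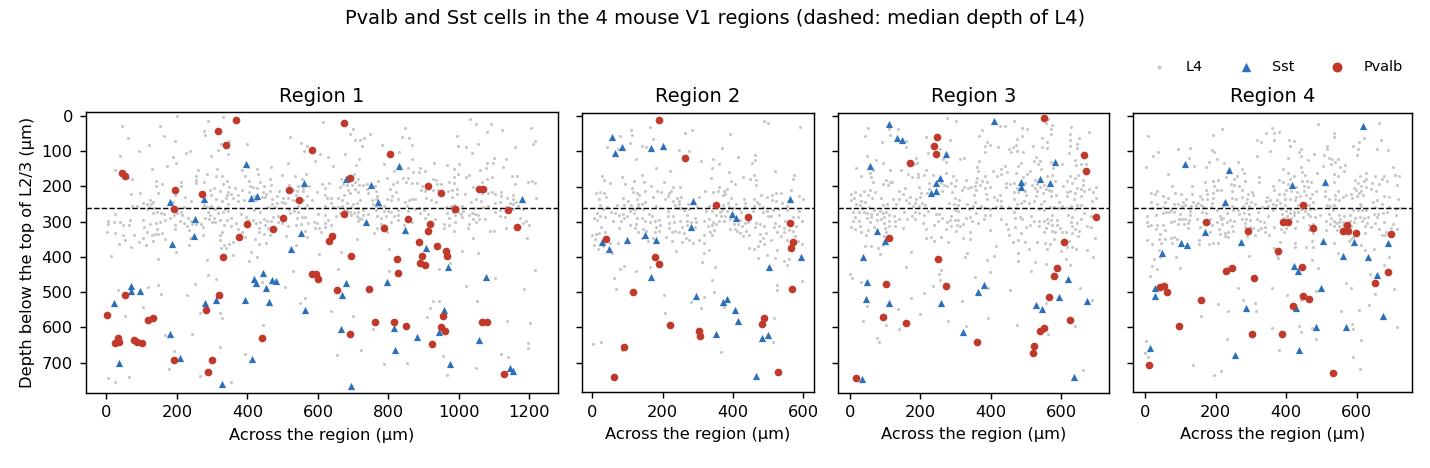
Positions of the Pvalb cells (red circles), Sst cells (blue triangles) and L4 cells (small grey points) in the 4 mouse V1 regions, with depth below the top of layer 2/3 in µm, scaled to the tallest region, on the vertical axis and distance across the region in µm on the horizontal axis. The dashed line is the median depth of L4 cells at 261 µm, and 122 of the 150 Pvalb cells lay below it.

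The share of Pvalb cells among all V1 cells rose with depth and fell again near the white matter. In 10 depth bins of equal height it was 0.695% (0.256 to 1.51) in the top bin and 1.45% (0.846 to 2.31) in the bin from 232 to 310 µm, where L4 lies. It was highest from 542 to 620 µm, at 2.87% (1.87 to 4.21), and 0.770% (0.310 to 1.58) in the bottom bin. The 4 bins from 310 to 620 µm lay between 2.37% and 2.87% with intervals that overlapped one another, so no single peak was resolved among them. Sst cells had their highest share from 465 to 542 µm, at 4.18% (2.84 to 5.92), in a bin where Pvalb cells made up 2.37% (1.39 to 3.77).

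**Figure D2:**
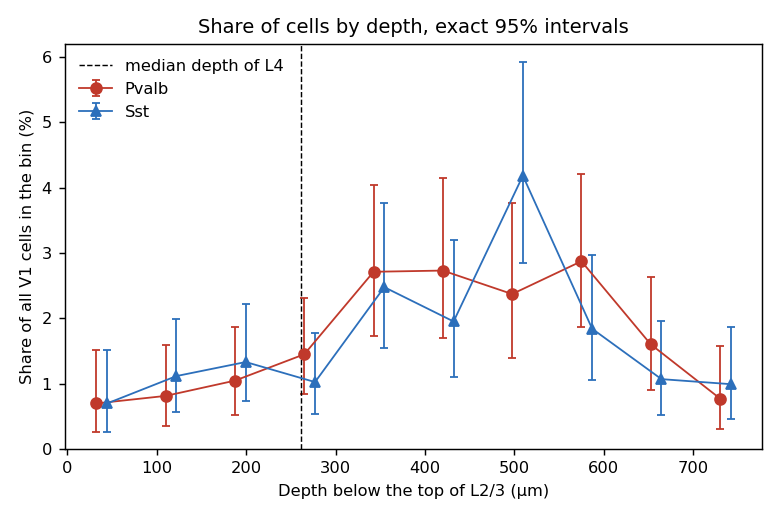
Share of all V1 cells in percent (vertical axis) that were Pvalb cells (red circles) or Sst cells (blue triangles) in 10 bins of depth below the top of layer 2/3 (horizontal axis, µm), with exact 95% intervals as bars and the median depth of L4 as a dashed line. The Pvalb share was 0.695% in the top bin, between 2.37% and 2.87% from 310 to 620 µm, and 0.770% in the bottom bin.

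Few Pvalb cells lay in the upper layers. Above the median depth of L4 there were 28 of 150 Pvalb cells, or 18.7% (12.8 to 25.8), against 39 of 144 Sst cells, or 27.1% (20.02 to 35.1), and 41.0% (39.8 to 42.2) of glutamatergic cells. By region the Pvalb share above this line was 22.7%, 15%, 28% and 3.33%, and it lay below the glutamatergic share in all 4 regions. Pvalb and Sst cells were not ordered the same way across regions, as the Sst share was 20% in region 1 and 46.9% in region 3. The median depth of Sst cells was 435 µm, and their regional medians (475, 357, 340 and 400 µm, 393 ± 60.3 SD) overlapped those of the Pvalb cells.

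Some Pvalb cells had another Pvalb cell close by. The median distance from a Pvalb cell to the nearest other Pvalb cell was 42.6 µm, and 27 of the 150 had another within 15 µm, while the median distance from any V1 cell to its nearest neighbour was 11.6 µm. The nearest Sst cell was at a median of 50.8 µm, and 6 Pvalb cells had an Sst cell within 15 µm. Of the 1333 distinct cells that had a Pvalb cell other than themselves within 30 µm, 4.88% carried a Pvalb subclass label of any class, against 1.91% of all V1 cells, and 2.48% carried an Sst label, against 1.85%. Sst cells showed the same kind of proximity, with 16 of 144 within 15 µm of another Sst cell. UMIs in neighbouring cells are not independent of one another (below), and their part in these pairs was not tested. The 27 paired cells held Pvalb at a level of 5.06 (3.09 to 7.82) and the other 123 at 5.66 (4.66 to 6.82), and Erbb4 at 23.5 (19.0 to 28.8) and 23.4 (21.3 to 25.7).

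The labelled cells are described next by the markers Pvalb, Gad1, Syt2 and Cox6a2, which cannot check labels that were set from expression. Pvalb lies on chromosome 15 from 78075314 to 78091149 on the minus strand (GRCm39) and encodes parvalbumin. Its level was 5.56 (4.66 to 6.60) in Pvalb cells, 1.82 (1.30 to 2.49) in Sst cells and 1.50 (1.42 to 1.58) in glutamatergic cells. In regions 1 to 4 the Pvalb level of Pvalb cells was 4.93, 6.82, 7.85 and 4.05, that of Sst cells 2.72, 0.81, 2.36 and 0.61, and that of glutamatergic cells 1.48, 1.21, 1.76 and 1.50. The Pvalb cells were the highest in every region, but their labels were set from expression, so this describes the labels and is no support for them. The ratio was 3.72 (3.08 to 4.45) over glutamatergic cells and 3.06 (2.12 to 4.49) over Sst cells, and the ratio over Sst cells was 4.67 without region 1.

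Gad1, which encodes the GABA-synthesising enzyme GAD67, was at a level of 5.02 (4.16 to 6.00) in Pvalb cells, 4.67 (3.80 to 5.68) in Sst cells and 1.88 (1.79 to 1.97) in glutamatergic cells. It was thus higher in both GABAergic groups than in glutamatergic cells, by 2.67-fold (2.19 to 3.21) in Pvalb cells. Its ratio between Pvalb and Sst cells was 1.07 (0.82 to 1.42). Syt2, the calcium sensor of fast release, held 21 UMIs in Pvalb cells at a level of 0.885, 2.46-fold (1.50 to 3.82) over glutamatergic cells and 3.16-fold (1.23 to 9.57) over Sst cells. Glutamatergic cells of layer 5 held like levels of it, at 0.958 (0.585 to 1.48) in L5IT and 0.609 (0.411 to 0.870) in L5PT cells. Cox6a2, a cytochrome c oxidase subunit of muscle and of these interneurons, held 4 UMIs in Pvalb cells, 6 in Sst cells and 96 in glutamatergic cells. Its ratio over glutamatergic cells was 1.53 (0.41 to 4.05), so a difference was not detectable at this depth. A list of 12 genes that tell types of Pvalb cells apart went the other way against Sst cells. Its summed level was 3.04 (2.37 to 3.82) in Pvalb cells, 6.12 (5.12 to 7.26) in Sst cells and 2.57 in glutamatergic cells, a ratio of 0.50 (0.37 to 0.67) and 1.18 (0.92 to 1.49), and it includes Reln, which Sst cells express. Gad1 overlaps Gad1os, Syt2 overlaps Ppp1r12b and Cox6a2 overlaps Itgad on the opposite strand, and reads of such pairs may not have been told apart.

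Marker detection in single cells was sparse. At least 1 Pvalb UMI was found in 66 of 150 Pvalb cells, or 44.0% (35.9 to 52.3), against 14.4% of glutamatergic cells and 13.5% of non-neuronal cells, which should lack the gene, at median depths of 1523, 1325 and 1245 UMIs. With every cell thinned to 300 UMIs, which left out 3 Pvalb cells, the shares were 14.3% in Pvalb cells, 4.20% in glutamatergic cells and 4.74% in non-neuronal cells. None of the 4 markers had a UMI in 56 of the 150 Pvalb cells (37.3%), and none of the cells held all 4. In glutamatergic cells 68.5% lacked all 4 markers. Pvalb and Gad1 thus set the Pvalb cells apart from glutamatergic cells as a group, but not cell by cell.

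RNA of other cell types was present in the Pvalb cells. The summed level of 9 glutamatergic marker genes was 37.3 in Pvalb cells and 48.4 in glutamatergic cells, a ratio of 0.77 (0.72 to 0.82), and was 35.7, 33.1, 40.8 and 40.7 in Pvalb cells of regions 1 to 4. Slc17a7, the vesicular glutamate transporter VGLUT1, had a UMI in 61.3% of Pvalb cells and in 65.1% of glutamatergic cells, at levels of 8.47 and 10.5. For 7 oligodendrocyte genes the ratio was 0.95 (0.87 to 1.04), for 7 astrocyte genes 0.98 (0.88 to 1.08) and for 7 microglial genes 0.99 (0.74 to 1.30). None of these marker genes was at 0 in the Pvalb cells. Pvalb cells and glutamatergic cells therefore held like levels of non-neuronal RNA, and every ratio over glutamatergic cells given here is between groups that share such RNA. The part of shared RNA in the other results was not tested.

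UMIs of Pvalb also stood in the neighbours of Pvalb cells. In 167 glutamatergic cells centred within 15 µm of a Pvalb cell, the Pvalb level was 3.93 (3.11 to 4.89), which was 70.6% of the level in the Pvalb cells themselves. It was 1.80 (1.54 to 2.09) from 15 to 30 µm, 1.38 (1.25 to 1.54) from 30 to 60 µm and 1.24 (1.07 to 1.44) beyond 120 µm. The closest cells were thus 3.16-fold (2.40 to 4.12) above the farthest ones, and beyond 30 µm the level changed little. In non-neuronal cells the Pvalb level was 3.53 (2.32 to 5.13) within 15 µm and 1.31 beyond 60 µm. By region, the glutamatergic cells within 15 µm held 37, 5, 12 and 26 Pvalb UMIs at levels of 3.51, 2.12, 5.03 and 5.12. These were above the levels beyond 60 µm (1.51, 1.33, 1.45 and 1.24) in all 4 regions, although in region 2 the interval of the ratio (0.51 to 3.81) included 1.

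Gad1 and Erbb4 were also higher in the closest neighbours, and Kcnc2 was not. Gad1 in glutamatergic cells was 3.34 (2.59 to 4.23) within 15 µm and 1.68 beyond 120 µm, a ratio of 1.99 (1.50 to 2.60). Erbb4 was 2.41 (1.78 to 3.18) within 15 µm and 0.900 beyond 120 µm, a ratio of 2.67 (1.89 to 3.73) whose interval overlapped that of Pvalb. Without the 2 glutamatergic cells within 15 µm that carried a Pvalb label, the near level of Erbb4 was 1.69 (1.17 to 2.36). Kcnc2 was flat, at 1.03 within 15 µm and 1.05 beyond 120 µm. As a share of the level in the Pvalb cells, the nearest and the farthest cells held 70.6% and 22.4% for Pvalb, 66.6% and 33.5% for Gad1, 10.3% and 3.84% for Erbb4, and 15.8% and 16.1% for Kcnc2. Set against the 3590 glutamatergic cells at least 60 µm away, the ratio of Pvalb was 3.98 (3.28 to 4.81).

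**Figure D3:**
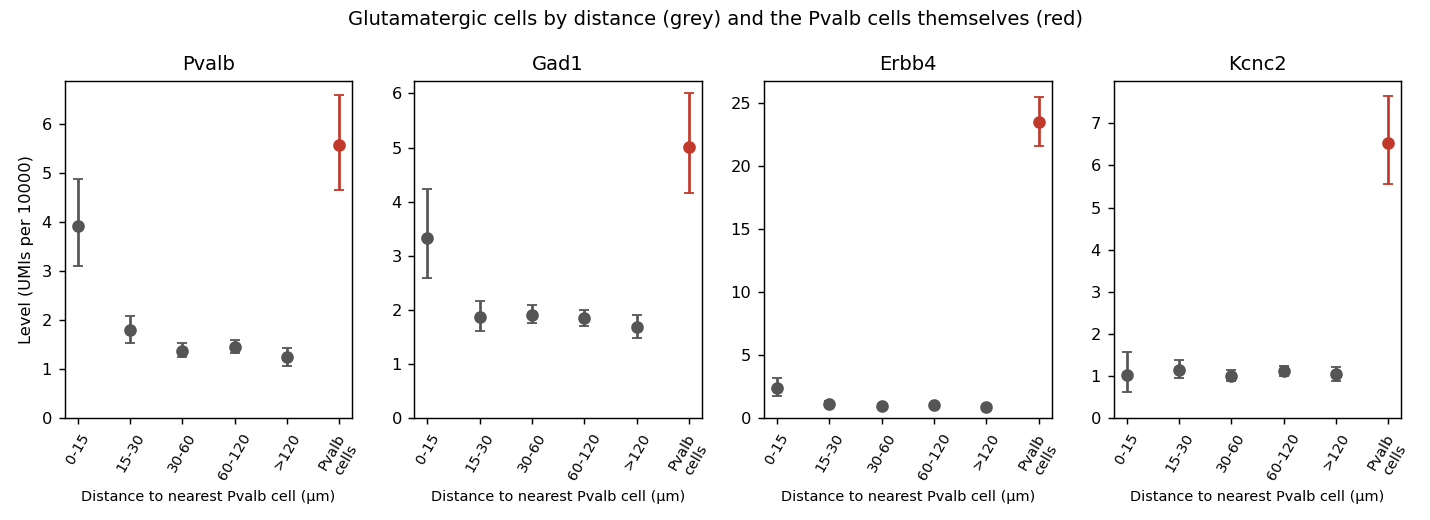
Levels of Pvalb, Gad1, Erbb4 and Kcnc2 (vertical axes, UMIs per 10000, each with its own scale from 0) in glutamatergic cells by distance to the nearest Pvalb cell in µm (grey) and in the Pvalb cells (red), with exact 95% intervals as bars. Pvalb fell from 3.93 within 15 µm to 1.24 beyond 120 µm, while Kcnc2 stayed between 1.01 and 1.16.

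Across the genome the comparison with glutamatergic cells took in 2289 genes whose mean level over both groups was at least 1. Of these, 40 were at least 2-fold higher in Pvalb cells (1.75%) and 18 at least 2-fold lower (0.786%). The interval lay wholly past 2-fold for 17 higher genes and 4 lower genes. The median log2 ratio of all tested genes was -0.01. The counts were 65 and 45 without region 1, which held 75 of the 150 cells.

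Erbb4, a receptor tyrosine kinase for neuregulins on chromosome 1 from 68071345 to 69147619 on the minus strand, had the highest ratio. Its level was 23.4 (21.5 to 25.5) in Pvalb cells, from 556 UMIs, and 1.05 (0.99 to 1.12) in glutamatergic cells, 22.3-fold (20.004 to 24.8) apart. In regions 1 to 4 it was 31.1, 16.6, 16.6 and 16.2 in Pvalb cells against 1.26, 0.80, 0.99 and 0.96 in glutamatergic cells. The groups were far apart in every region, with region 1 the highest. Among other GABAergic cells the Erbb4 level was 12.0 (8.75 to 16.2) in 31 Lamp5 cells, 7.22 (4.62 to 10.7) in 25 Vip cells and 1.87 (1.33 to 2.54) in Sst cells. Its ligand Nrg1 went the other way, with a level of 1.98 in Pvalb cells and 4.76 in glutamatergic cells, a ratio of 0.42 (0.31 to 0.55), and was lower in all 4 regions.

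Erbb4 was unevenly spread over the Pvalb cells. At least 1 UMI was found in 94 of 150 (62.7%), against 9.78% of glutamatergic and 12.1% of non-neuronal cells, and the largest number in a cell was 45. The 28 Pvalb cells with at least 5 Erbb4 UMIs held 414 of the 556, or 74.5%, and the level in the other 122 cells was 7.54 (6.35 to 8.88). The variance of Erbb4 UMIs over the cells was 14.6 times their mean, against 1.81 times for Pvalb, so the intervals of Erbb4 understate its spread. Of the 47 V1 cells with at least 5 Erbb4 UMIs, 28 (59.6%) were Pvalb cells, while of the 15 V1 cells with at least 5 Pvalb UMIs 2 (13.3%) were. With at least 3 UMIs the shares were 31.8% for Erbb4 (49 of 154 cells) and 10.7% for Pvalb (17 of 159). Both genes were seen together in 45 Pvalb cells and neither in 35.

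Behind Erbb4 came Btbd11, now named Abtb3, which encodes a BTB-domain protein and lies on chromosome 10 from 85222643 to 85496156 on the plus strand. It held 63 UMIs in Pvalb cells at a level of 2.66 (2.04 to 3.40), 16.3-fold (11.9 to 22.1) over glutamatergic cells, and was higher in all 4 regions (2.99, 2.60, 1.09 and 3.41 against 0.17, 0.20, 0.13 and 0.15). Nxph1, a secreted ligand of neurexins, was 9.44-fold (7.59 to 11.7) over glutamatergic cells. It was shared with Sst cells, in which it was higher still, at levels of 4.68 in Pvalb and 6.40 in Sst cells. Grip1, an AMPA receptor scaffold, did the same (4.26 in Pvalb, 7.38 in Sst and 0.75 in glutamatergic cells). Adhesion molecules included Cntnap2 at 3.38-fold (2.98 to 3.82) and the contactin Cntn5 at 3.49-fold (2.89 to 4.18). Rbms3, an RNA-binding protein, was 6.07-fold (4.55 to 7.98), Galntl6, a glycosyltransferase family member, 4.72-fold (4.01 to 5.52), Gabrg3, the gamma-3 subunit of the GABA-A receptor, 3.62-fold (2.83 to 4.57), and the receptor phosphatase Ptprm 3.17-fold (2.22 to 4.40). Ptprm was above glutamatergic cells in 3 of 4 regions and the other genes of this paragraph in all 4, although Cntnap2 varied between regions in the Pvalb cells (15.1, 21.4, 3.49 and 6.82).

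Genes lower in Pvalb cells than in glutamatergic cells included Hs6st3, a heparan sulfate sulfotransferase, at a ratio of 0.28 (0.17 to 0.42), and Cacna2d3, an auxiliary calcium channel subunit, at 0.31 (0.18 to 0.50). Lingo2, a leucine-rich repeat protein, was at 0.34 (0.22 to 0.50), Dpp10, an auxiliary subunit of Kv4 potassium channels, at 0.38 (0.32 to 0.45), and Grm7, a metabotropic glutamate receptor, at 0.39 (0.27 to 0.54). Ociad2 was at 0.38 (0.21 to 0.63). Each was lower in all 4 regions. The noncoding gene AC124561.1, now Gm49685, was at 0.33 (0.21 to 0.49), but it overlaps Cdh12 on the same strand, so its reads cannot be assigned with certainty. In glutamatergic cells above the median depth of L4, Hs6st3, Lingo2 and Grm7 were at 4.59, 4.98 and 5.31. Below it, where most Pvalb cells lay, they were at 2.46, 2.25 and 3.01, while Dpp10 rose from 12.1 to 15.1. With glutamatergic cells weighted to the regions and depths of the Pvalb cells, 16 genes were at least 2-fold lower. The part of depth in the ratio of each gene was not tested.

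The genes past 2-fold in either direction were long. Their median length was 380 kb for the 40 higher and 653 kb for the 18 lower genes, against 37.2 kb for all tested genes, and 30 of the 40 and 16 of the 18 exceeded 100 kb, against 28.1% of the tested genes. By contrast Pvalb spans 15.8 kb. The part of gene length in these calls was not tested.

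**Figure D4:**
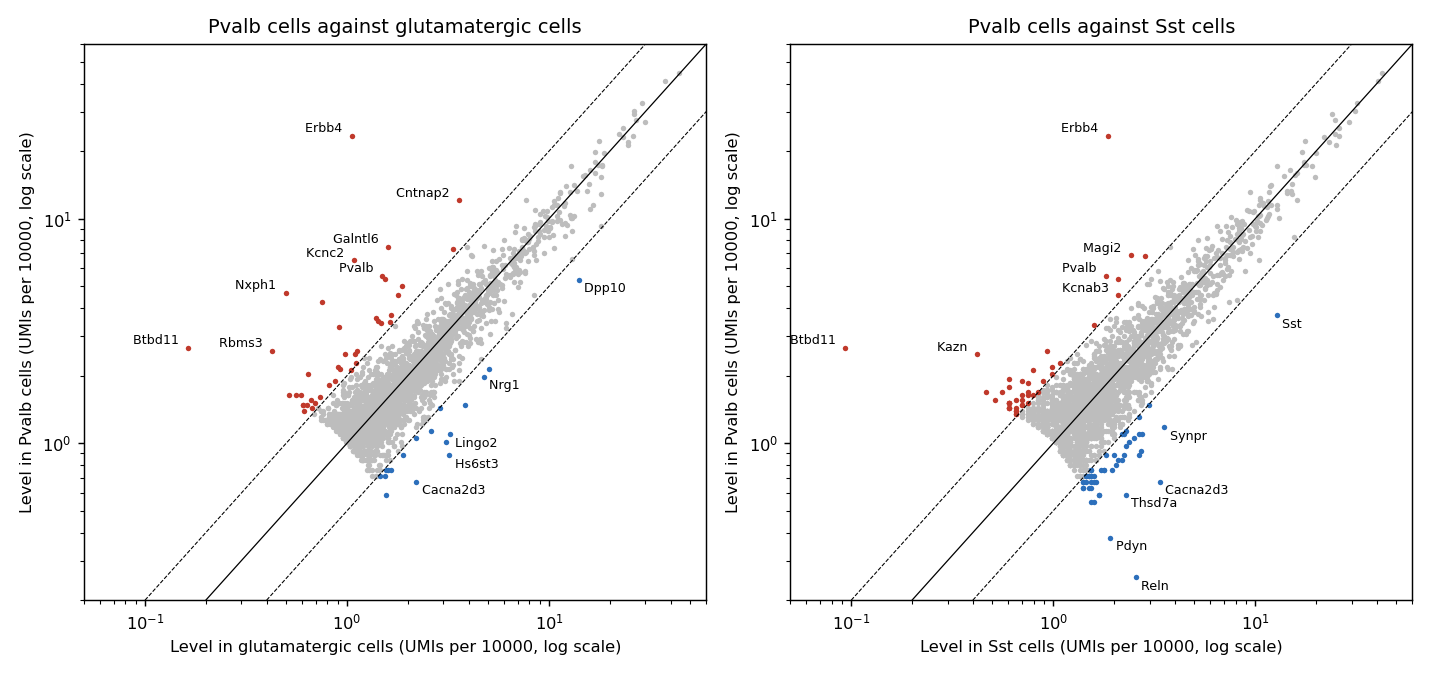
Levels of the tested genes in Pvalb cells (vertical axes) against glutamatergic cells (left) and Sst cells (right), in UMIs per 10000 on log axes, with red points at least 2-fold higher in Pvalb cells, blue points at least 2-fold lower, a solid line of equality and dashed lines at 2-fold. Erbb4 lay at 23.4 in Pvalb cells against 1.05 and 1.87, while most genes lay between the dashed lines.

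The comparison with Sst cells asked what separates the groups of shared origin. Of 2293 genes tested, 44 were at least 2-fold higher in Pvalb cells (1.92%) and 51 at least 2-fold lower (2.22%), and for 5 in each direction the interval lay wholly past 2-fold. With 144 Sst cells these counts rose whichever region was left out. They were 105 and 118 without region 1 and 64 and 65 without region 2. Without region 3 they were 82 and 77, and without region 4 they were 70 and 65. Leaving out a region also leaves fewer UMIs per gene, and the part of this was not tested. The 7 astrocyte genes were also higher in Pvalb than in Sst cells, at 1.29-fold (1.10 to 1.51) and in 3 of 4 regions (16.8, 19.5, 16.1 and 13.003 against 12.2, 14.3, 11.4 and 13.5), and their part in this comparison was not tested. Btbd11 led the higher genes with 63 UMIs in Pvalb and 2 in Sst cells, a ratio of 28.4 (7.55 to 240). Erbb4 was 12.5-fold (9.10 to 17.8) higher, Kazn, a cytoskeletal adaptor, 5.92-fold (2.92 to 13.6), and the synaptic scaffold Magi2 2.83-fold (2.06 to 3.94). These 4 genes were above Sst cells in all 4 regions.

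Other genes above Sst cells rested on fewer UMIs. Arpc4, a subunit of the actin-nucleating Arp2/3 complex, was 3.61-fold (1.77 to 8.10) higher, but it overlaps Ttll3 on the same strand and was above Sst cells in 3 regions. The ubiquitin ligase genes Mib1 and Rnf145 were 3.01-fold (1.55 to 6.30) and 3.04-fold (1.52 to 6.60) higher, and Ypel5 was 3.19-fold (1.70 to 6.44) higher, each in all 4 regions. Spock3, an extracellular proteoglycan, was 2.92-fold (1.54 to 5.92) higher in the pooled cells but above Sst cells in 2 of 4 regions, with levels of 2.90, 0.97, 0.22 and 1.07 in Pvalb cells. Fam19a2, now Tafa2, was 2.71-fold (1.48 to 5.23) higher in all 4 regions.

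Several genes were lower in Pvalb than in Sst cells. Reln, the extracellular protein reelin, was at a level of 0.253 in Pvalb cells and 2.57 in Sst cells, a ratio of 0.10 (0.03 to 0.23). Pdyn, the precursor of dynorphin, was at a ratio of 0.20 (0.08 to 0.41). Sst, the precursor of somatostatin, was at 0.29 (0.23 to 0.37). Its level was 3.71 (2.98 to 4.57) in Pvalb cells, 12.8 (11.3 to 14.4) in Sst cells and 3.58 in glutamatergic cells, and the ratio over glutamatergic cells was 1.04 (0.83 to 1.28). Cacna2d3 was at 0.20 (0.11 to 0.35), Thsd7a at 0.26 (0.13 to 0.47), Synpr, a synaptic vesicle protein, at 0.33 (0.21 to 0.52), and Mgat4c, a glycosyltransferase, at 0.34 (0.20 to 0.57). All of these were lower than in Sst cells in every region.

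Higher against both glutamatergic and Sst cells were 12 genes, which were 30% of the 40 and 27.3% of the 44. They were Btbd11, Ccser2, Cntn5, Erbb4, Kazn, Kcnab3, Krt222, Neto2, Pam, Pvalb, Rbms3 and Wwox. Most UMIs of Cntn5 lay in 10 of the Pvalb cells (above). Neto2, an auxiliary subunit of kainate receptors, was 2.43-fold (1.68 to 3.43) over glutamatergic and 2.11-fold (1.12 to 4.15) over Sst cells, and Pam, which amidates neuropeptides, 2.06-fold (1.53 to 2.71) and 2.12-fold (1.28 to 3.62). Lower against both were 6 genes, namely Atp8a1, Cacna2d3, Frmpd4, March1, Ociad2 and Rgs6. Cdh13, a cadherin without a cytoplasmic tail, was 2.44-fold (1.68 to 3.44) over glutamatergic cells and at 0.49 (0.32 to 0.76) of Sst cells. Both comparisons use the same Pvalb cells, so these overlaps are not independent. Genes in these lists that are not described elsewhere were named because they were in the overlap, after their values were seen.

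Genes of the fast-spiking phenotype were higher in Pvalb cells mainly through potassium channel subunits. The 16 listed channel genes summed to a level of 35.0 in Pvalb cells, 28.2 in Sst cells and 21.1 in glutamatergic cells, a ratio of 1.66 (1.55 to 1.78) over glutamatergic and 1.24 (1.12 to 1.38) over Sst cells. In regions 1 to 4 the sum was 35.2, 42.2, 34.2 and 30.5 in Pvalb cells against 20.1, 20.2, 23.2 and 21.3 in glutamatergic cells. Against Sst cells (27.2, 25.7, 28.5 and 31.4) it was higher in regions 1 to 3 and lower in region 4. Of the 10 genes of this list with enough UMIs to be tested against glutamatergic cells, 5 were at least 2-fold higher and none at least 2-fold lower, where 1.75% and 0.786% of all tested genes were. Their median log2 ratio was 0.79, against -0.01 for all tested genes.

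The channels that were higher are subunits with known partners. Kcnc2, which encodes Kv3.2, was at 6.53 (5.55 to 7.65) in Pvalb cells and 1.08 in glutamatergic cells, 6.06-fold (5.08 to 7.18). Its levels in regions 1 to 4 were 7.57, 11.04, 3.71 and 3.84, each above the 0.94 to 1.15 of glutamatergic cells. Sst cells held 4.67 (3.80 to 5.68), and the Pvalb cells exceeded them in 2 of 4 regions. Kcnc1, which encodes Kv3.1, was 2.33-fold (1.84 to 2.92) over glutamatergic cells, and Kcnab1 and Kcnab3, which encode beta subunits of Kv channels, 2.43-fold (1.80 to 3.22) and 2.54-fold (2.07 to 3.09). Kcnab3 was also 2.17-fold (1.52 to 3.14) over Sst cells. Scn1a and Scn8a, sodium channels of the axon, were at 1.40 (1.03 to 1.87) and 1.21 (0.98 to 1.47) and above glutamatergic cells in 2 of 4 regions, and Kcna2, which encodes Kv1.2, at 0.66 (0.43 to 0.98).

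The release apparatus as a whole was not higher, but its genes were split. The summed ratio of the 17 listed genes was 0.98 (0.94 to 1.02) over glutamatergic and 0.94 (0.89 to 1.00) over Sst cells, and 6 of the 14 tested genes were above 1 in each comparison, where 49.2% and 48.3% of all tested genes were. Vamp1, a vesicular SNARE protein, stood at 1.88 (1.37 to 2.53) over glutamatergic cells and was above them in all 4 regions. Syt1, the more general calcium sensor, was at 0.85 (0.76 to 0.94) and below them in all 4. Syt2 and Vamp1 were above glutamatergic cells in every region, therefore, and Syt1 below.

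Nuclear genes of oxidative phosphorylation were slightly higher. The list of 106 nuclear features, taken by their symbols, summed to a level of 261 in Pvalb cells, 240 in Sst cells and 233 in glutamatergic cells, a ratio of 1.12 (1.09 to 1.15) and 1.09 (1.05 to 1.13). The sum was above that of glutamatergic cells in all 4 regions (247, 287, 268 and 273 against 225, 244, 245 and 225). Of 69 tested genes of the list, 55 were above 1 against glutamatergic cells, compared with 49.2% of all tested genes, and none reached 2-fold in either direction. The list holds 7 processed pseudogenes, 5 features annotated as noncoding and 8 Ndufaf assembly factors, and without these the sums of the other 86 genes gave 1.12 (1.09 to 1.15) and 1.08 (1.04 to 1.13). Cox5a, a cytochrome c oxidase subunit, was at 1.58 (1.25 to 1.96) and above glutamatergic cells in 3 of 4 regions. Genes of the mitochondrial genome were at 1.06 (1.01 to 1.11).

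**Figure D5:**
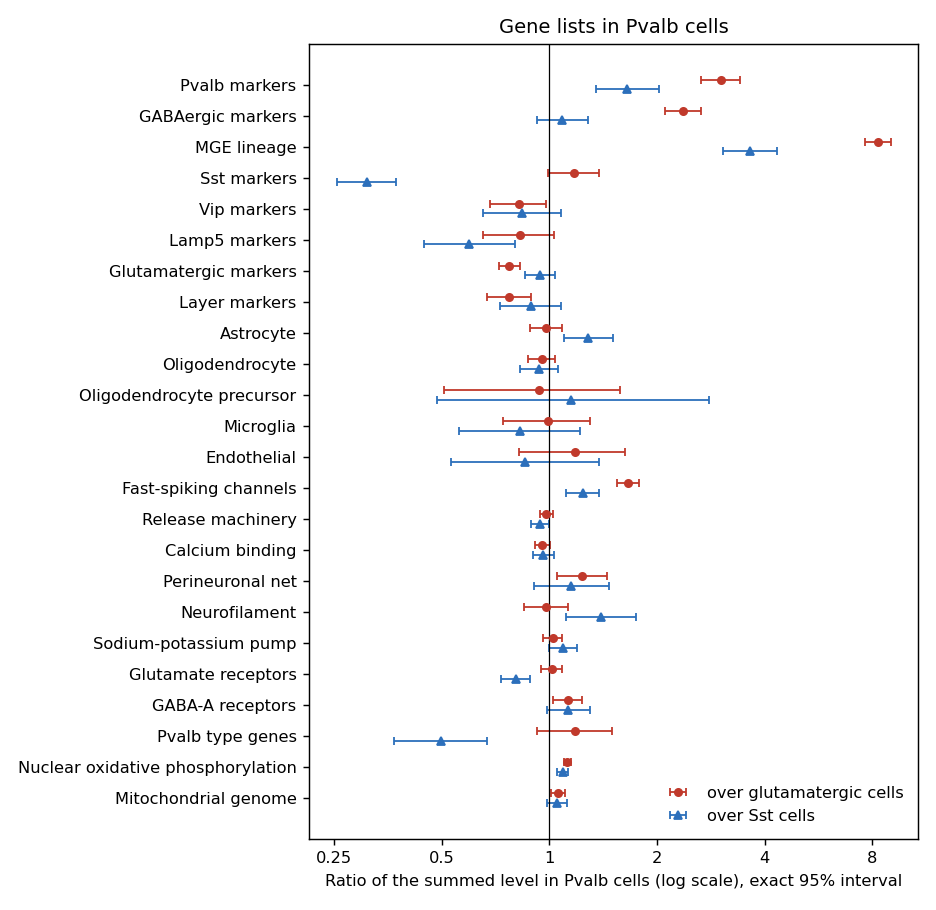
Ratio of the summed level of each gene list in Pvalb cells over glutamatergic cells (red circles) and over Sst cells (blue triangles), on a log axis with exact 95% intervals as bars and a line at 1. Fast-spiking channels lay at 1.66 and 1.24, nuclear oxidative phosphorylation at 1.12 and 1.09, and Sst markers at 1.17 and 0.31.

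Genes of the perineuronal net were few in UMIs. Acan, the core proteoglycan aggrecan, held 5 UMIs in Pvalb cells, 1 in Sst cells and 15 in glutamatergic cells, levels of 0.211, 0.0467 and 0.0172. Its ratio over glutamatergic cells was 12.2 (3.48 to 35.4). The UMIs came from regions 1 and 2. Hapln4 and Bcan, a link protein and the proteoglycan brevican, were at 1.94 (1.25 to 2.87) and 1.86 (1.22 to 2.72) over glutamatergic cells. Hapln1, another link protein, held 5 UMIs in Pvalb cells and 0 in Sst cells. Tnr, which encodes tenascin-R, and Ncan, which encodes neurocan, were at 1.07 (0.75 to 1.48) and 0.86 (0.60 to 1.19). The whole list of 13 genes was at 1.24 (1.05 to 1.45) over glutamatergic and 1.15 (0.90 to 1.47) over Sst cells. Acan, Hapln4 and Bcan thus had intervals above 1 over glutamatergic cells, but all 3 were below the mean level of 1 set for tested genes. Only 2 genes of the list, Tnr and Ncan, passed that limit, and neither was resolved from 1. Of all tested genes, 11.6% had an interval above 1. Hapln4 and Ncan overlap on opposite strands, however, so their reads may not have been told apart.

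GABAergic and developmental genes separated Pvalb cells from glutamatergic cells more than from Sst cells. The 10 GABAergic genes summed to 2.37-fold (2.11 to 2.65) over glutamatergic and 1.09-fold (0.92 to 1.28) over Sst cells. Slc32a1, the vesicular GABA transporter, was at 1.96 (1.33 to 2.80) over glutamatergic cells. Of the MGE transcription factors, Sox6 held 37 UMIs, 8.94-fold (6.06 to 12.9) over glutamatergic cells, and Maf 25 UMIs, 4.39-fold (2.78 to 6.67). Maf was also 2.82-fold (1.23 to 7.23) over Sst cells. Lhx6, the defining factor of the lineage, held 6 UMIs in Pvalb cells and 13 in Sst cells, and its ratio over glutamatergic cells (1.55, 0.56 to 3.46) was not resolved from 1.

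Summed ratios of receptor and ion pump genes over glutamatergic cells lay between 1.01 and 1.13, while glutamate receptor genes were lower than in Sst cells. Glutamate receptor genes summed to 1.01 (0.95 to 1.09) over glutamatergic cells and 0.80 (0.73 to 0.88) over Sst cells, and GABA-A receptor genes to 1.13 (1.02 to 1.24) and 1.13 (0.98 to 1.30). The sodium-potassium pump list was at 1.02 (0.96 to 1.08) over glutamatergic cells, with the beta subunit gene Atp1b1 at 1.26 (1.16 to 1.38). Neurofilament genes were at 0.98 (0.85 to 1.13) over glutamatergic cells and 1.39 (1.11 to 1.75) over Sst cells.

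Within the Pvalb cells, the strictness of the label moved with the markers. Labels were assigned in 3 rounds with falling thresholds, and 50, 69 and 31 cells were labelled in rounds 1, 2 and 3. The Erbb4 level was 45.7, 11.4 and 9.07 in these rounds, the Pvalb level 6.82, 5.28 and 3.92, and the Gad1 level 6.36, 4.50 and 3.71. The level of Slc17a7 was 6.13, 10.2 and 9.07. Round 1 cells held the most Erbb4 and the least Slc17a7. Since the labels were set from expression, this is a description of how they were given.

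Finer type labels were available for few cells. Of the 150, 99 carried none, 24 were labelled Pvalb_D, 10 Pvalb_A and 2 Pvalb_C, and the other 15 carried a type name of another subclass, 7 of them microglial (Micro). The median depth was 584 µm for Pvalb_D and 366 µm for Pvalb_A, against 422 µm for cells with no type. Pvalb_D cells ranged from 41.6 to 741 µm, however, and 17 of the 24 were in region 1 and none in region 3. The Erbb4 level was 61.0 (53.3 to 69.5) in Pvalb_D and 15.995 (10.9 to 22.7) in Pvalb_A cells, and the Gad1 level 2.97 and 9.80.

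The 28 upper Pvalb cells, those above the L4 median, and the 122 deep ones held Pvalb at levels of 5.64 and 5.55, a ratio of 1.02 (0.60 to 1.64), which was 1.63 (0.82 to 2.99) without region 1. Over all 2917 genes with at least 20 UMIs in the Pvalb cells, the interval of the upper over deep ratio lay above 1 for 5.59% and below 1 for 4.94%. Of 205 listed genes with that many UMIs, it lay above 1 for 10 and below 1 for 18. The share above 1 was thus near that of all genes and the share below 1 somewhat above it, and no gene below is called particular to a layer. Pcp4, a calmodulin regulator of deep layers, was at 0.282 in upper and 3.87 in deep Pvalb cells, and at 1.52 and 5.72 in glutamatergic cells at the same depths.

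Over 23 gene lists, the interval of the upper over deep ratio left out 1 for 10, and all of these but the MGE and perineuronal net lists had the same order in glutamatergic cells. The MGE list was led by Erbb4, at 31.9 in upper and 22.0 in deep cells, a ratio of 1.45 (1.17 to 1.79) that was 2.64 (1.89 to 3.65) without region 1 and 1.08 (0.82 to 1.39) without region 3. Perineuronal net genes were lower in the upper cells. Their summed level was 2.54 in upper and 7.34 in deep Pvalb cells, a ratio of 0.35 (0.16 to 0.67), while glutamatergic cells had 5.35 at both depths. It rested on 9 UMIs in 7 upper cells and 148 UMIs in 70 deep cells, and the ratio lay between 0.18 and 0.40 when 1 region at a time was left out. Tnr accounted for 37 of the deep UMIs and 0 of the upper ones. Gad1 was at 2.25 in upper and 5.50 in deep cells, a ratio of 0.41 (0.17 to 0.84), but at 0.73 (0.26 to 1.67) without region 1. Median UMIs were 1184 in upper and 1585 in deep cells.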

How the data were processed

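The authors sequenced 1 Stereo-seq section of each species, aligned mouse reads to GRCm39 with the Stereo-seq Analysis Workflow and segmented cells. The deposited values are UMI counts per gene and cell, not normalized, with positions and labels, and the authors dropped cells under 50 genes or 100 UMIs. Cells outside V1 were not used here. Pvalb and Sst cells of GABAergic class and glutamatergic cells were compared by summed UMIs per 10000 with numpy 2.4.6, pandas 2.3.3 and scipy 1.17.1 under Python 3.11.15, and drawn with matplotlib 3.10.9. Genes whose mean of both levels was at least 1 were compared, and 2-fold was the limit for a call. The calls and intervals were tested on simulated data with Poisson counting error only, so the test does not cover genes spread over cells as unevenly as Erbb4. In it some unchanged genes were called, and lower genes that fell under the level limit were missed. Spatial units were divided by 2 to give µm. Depth was measured from the top of layer 2/3 along each region's height and scaled to the tallest region (774 µm). Thinning drew 300 UMIs per cell. Of 61317 features, 61249 matched GENCODE M39 by identifier, the source of positions and current names.

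Named genes are those of the lists used, plus for each comparison the 12 highest and 8 lowest ratios past 2-fold among genes with at least 30 UMIs in the higher group. Genes named for a pooled ratio were chosen from the same cells as their regional values, so those values are no independent support. The cells, the gene lists and the tests were chosen with earlier results of these data known. Cplx1 had 2 features, which were both kept in the list sums. Alternatives changed the cell filter, the label rounds, the class rule, the regions, the depth scaling, the level definition, the glutamatergic group and the limits on genes. Pvalb cells without other Pvalb cells nearby or without high Erbb4, distant or unlabelled glutamatergic neighbours, the regions of the depth and distance results, and the coding part of the oxidative phosphorylation list were chosen as alternatives after seeing the data. Some genes of the lists are not reported here by name.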

Additional observations from a re-analysis of the deposited data

How the results depend on the processing

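The direction of the Pvalb ratios held in every alternative run. Over glutamatergic cells the ratio stayed inside its interval in all of them (3.28 to 4.09), and over Sst cells in all but the omission of region 1 (2.65 to 4.67 over the omissions of 1 region). The Pvalb share of GABAergic cells was 23.9% with labels of rounds 1 and 2 only and 25.3% to 31.9% with each region left out. The share for rounds 1 and 2 kept all GABAergic cells as its base, so it could only fall. The median depth was 397 µm unscaled. Of 114 alternative values, 82 were within the interval, the SD over regions or 1.5 times the count. None reversed, but only ratios could reverse: those of Pvalb, near over far and upper over deep. The gene counts, the share and the depth, which are most of the values, could not. The counts of genes past 2-fold moved most. In the order higher and lower than glutamatergic cells, then higher and lower than Sst cells, they were 45 to 65, 22 to 45, 64 to 105 and 65 to 118 with each region left out, 190, 113, 270 and 319 with each cell thinned to 300 UMIs, 17, 8, 7 and 4 with a mean level of at least 2, 3635, 23358, 4944 and 4749 with no minimum level, and 17, 4, 5 and 5 where the interval had to lie wholly past 2-fold. With labels of rounds 1 and 2, 31 genes were lower than glutamatergic cells and 88 higher than Sst cells, and with the mean of per-cell levels 71 were higher than Sst cells. The number lower than glutamatergic cells was 31 without the Pvalb cells that held at least 5 Erbb4 UMIs and 29 without those with another Pvalb cell within 15 µm. Thinning and no minimum both leave fewer UMIs per compared gene. The near over far ratio of Pvalb in neighbours was 2.98 to 3.58 with each region left out. No paired analysis was possible because there was 1 mouse sample. Depth limits the account of low genes such as Cox6a2, Acan and Lhx6, whose ratios rest on few UMIs.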
